A study of Homo sapiens with 24 samples.

Results

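The m6A landscape of definitive endoderm (DE) was described from all peaks called on the DE m6A-seq libraries. The DE list held 32680 of the 228472 peaks deposited for the 6 cell populations of the series. All peaks of the list were taken. They lay on 13510 genes, with 30723097 IP reads and 12602604 input reads inside the peaks. Of these peaks, 20498 had p below 1e-05 (62.7%).

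The DE cells came from MEL1, an established human embryonic stem cell line that carries a GFP reporter at the insulin locus and was maintained on CF1 mouse feeder cells. Activin A at 100 ng/ml was given from day 1 to day 3, with CHIR99021, an activator of Wnt signalling, at 3 µM on day 1. DE was represented by 2 IP and 2 input libraries. Messenger RNA was enriched, fragmented to about 100 nt and precipitated with an antibody against N6-methyladenosine (IP), beside the unprecipitated fragments (input). Side-by-side values came from 3 other populations of the same batch, namely the undifferentiated line (hPSC), pancreatic progenitors (PP) and islet-like organoids (hILO), the later stages of this differentiation.

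Reads were given pooled over the libraries of a group. No spread between replicates could be computed, no test between conditions was made, and the errors below cover counting error only. Log2 enrichment is the deposited, corrected value of the peak caller, and the counting error beside it is that of the plain log2 ratio of the reads, so that it does not cover the correction. Where the text says log2 ratio, it is the plain ratio. A gene without a peak may still be expressed, and reads in peaks mix the level of a transcript with the number and width of its peaks. In such a bulk sample, fewer cells of a type and less RNA per cell cannot be told apart.

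m6A is placed co-transcriptionally on adenosines of the DRACH motif, whose core is an A followed by a C, by a complex around METTL3 and METTL14, can be removed by FTO and ALKBH5, and is read by YTH-domain proteins that alter splicing, translation and decay. It is known to concentrate in long exons and around stop codons. Definitive endoderm is the germ layer that yields gut, liver and pancreas. It forms under Nodal or activin signalling and is marked by transcription factors such as SOX17, FOXA2, GATA4, GATA6 and EOMES.

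The sites below are shown because they lie in the most heavily read peak of endoderm factors and Nodal pathway genes, which are described first. Each is a 29 nt stretch of the transcript strand of GRCh38 with the DRACH motif in capitals. The GGACT site nearest the peak centre was taken, then other GGAC sites, then other DRACH sites. A motif match is a description of the sequence and not a mapped methylated base.

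GATA6, chr18:22201072-22201100, + strand, 3′UTR: ttccagaagccaGGACTaggacctgggcc

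FOXA2, chr20:22581787-22581815, - strand, 3′UTR: accccggatcgaGGACAagtgagagagca

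EOMES, chr3:27717011-27717039, - strand, CDS: ctttttgcagatGGACTtggtggtgtttt

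GSC, chr14:94768433-94768461, - strand, 3′UTR: acctaactcgaaGGACTtgcacagacaga

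CER1, chr9:14720130-14720158, - strand, CDS: gagcatgaagatGGACAcatcctacatgc

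CXCR4, chr2:136115855-136115883, - strand, CDS: aatgggctcaggGGACTatgactccatga

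PRDM1, chr6:106107343-106107371, + strand, CDS: aacatggggaatGGACTcctctcctcagg

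NODAL, chr10:70432662-70432690, - strand, 3′UTR: tctttactgaaaAGACAgtggcaaggaaa

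All 18 definitive endoderm factors on the list carried at least 1 peak (100%, Wilson 95% interval 82.4% to 100%), whereas 53.1% of the 20046 annotated protein-coding genes did. Together these factors had 50 peaks with 479492 IP reads and 156640 input reads. They had 0.727 peaks per kb of exon, compared with 0.250 per kb over all protein-coding genes, and this was the highest density among the 34 gene lists. The median log2 enrichment of their peaks was 1.72, close to 1.71 over all peaks of protein-coding genes. The background density also counts coding genes without a peak, so part of the contrast in density repeats the share of genes with a peak. Of the factors, 1 had 5 or more peaks (5.56%), beside 13.2% of protein-coding genes with a peak. The list was chosen with earlier results of these data known.

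CER1, a secreted antagonist of Nodal and BMP, had the most reads of these factors. Its 2 peaks held 274438 IP and 89465 input reads. A single 275 nt peak over the end of the coding sequence, chr9:14719974-14720248, held 97.4% of the IP reads, with a log2 enrichment of 2.08 (counting error of the plain ratio 0.01). The site printed for CER1 lies in this peak. A second peak of 50 nt in the 5′UTR had 7016 IP and 3154 input reads.

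SOX17, the transcription factor that specifies endoderm, had 3 coding peaks with 41690 IP and 12130 input reads. One 75 nt peak in the first exon held 92.3% of the IP reads, and the widest peak, 525 nt at the end of the coding sequence, held 538 IP and 180 input reads. CXCR4, the chemokine receptor by which endoderm cells are often sorted, had 39577 IP and 14180 input reads over 4 peaks. The read-rich peak of 600 nt in its coding sequence held 22998 IP and 6755 input reads and was enriched at 2.19 on the log2 scale (counting error 0.02). In contrast to CER1 and SOX17, the reads of CXCR4 were spread, since 58.1% of its IP reads were in that peak.

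GATA6 and GATA4, zinc-finger factors of endoderm, each had 4 peaks. GATA6 had 33517 IP and 11293 input reads, and its leading peak of 675 nt lay in the 3′UTR with 22238 IP and 6303 input reads at a log2 enrichment of 2.30 (counting error 0.02). GATA4 had 24256 IP and 7543 input reads, and its leading peak of 850 nt also lay in the 3′UTR at 2.11 (counting error 0.02). FOXA2, a pioneer factor of endoderm, showed the same layout, with 10446 IP and 2887 input reads in an 850 nt peak of the 3′UTR at 2.21 (counting error 0.03).

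GSC, an organizer homeobox factor, had a single 350 nt peak in the 3′UTR with 18905 IP and 4555 input reads at 2.28 (counting error 0.02). EOMES, a T-box factor upstream of SOX17, had 11907 IP and 5167 input reads over 4 peaks, and 80.1% of its IP reads were in an 800 nt peak at the end of the coding sequence at 1.81 (counting error 0.03). LHX1, a LIM homeobox factor, had the most peaks of the list, 5, but 1873 IP and 501 input reads. MIXL1 had 1 peak with 275 IP and 60 input reads, and OTX2 had the fewest IP reads, 273 over 2 peaks. IP reads thus ranged from 273 to 274438 among factors that all carried peaks.

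**Figure D1:**
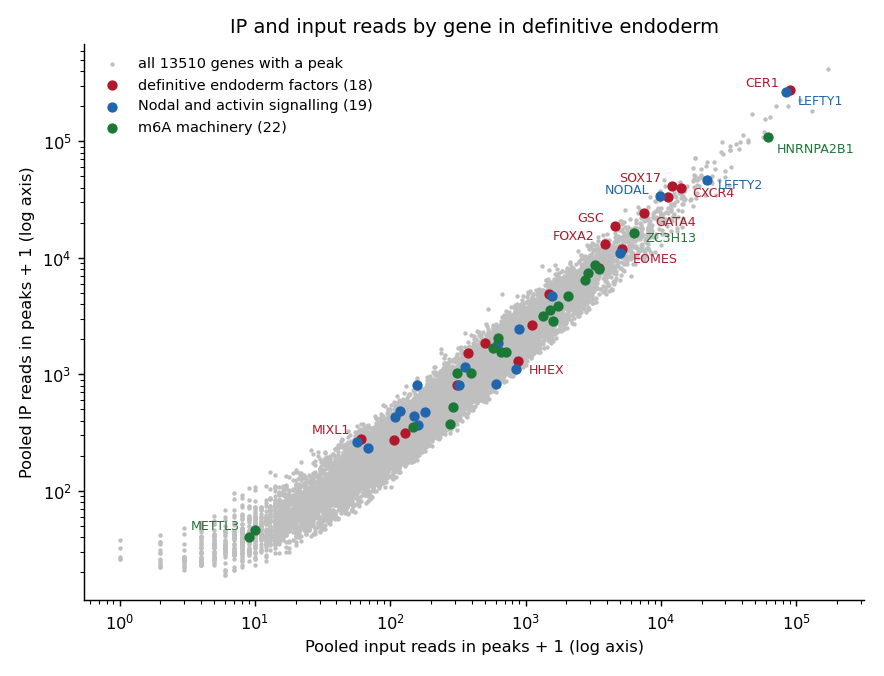
Pooled IP reads against pooled input reads in the peaks of each gene, both plus 1 on log axes, for all 13510 genes with a DE peak (grey) and for 3 gene lists (coloured). CER1 with 274438 IP reads and LEFTY1 with 264203 lie near the top right, and METTL3 with 39 lies at the bottom left.

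The share of input reads in peaks was compared side by side with the other 3 lists, as RPM, the reads in the peaks of a gene scaled to the total of the reads in all peaks of that list. The lists were called and scaled separately. CER1 had 7099 input RPM in DE and 13.6 in hPSC, and no peak in PP or hILO. GATA6 had 896 RPM in DE, no peak in hPSC, 52.4 in PP and 20.7 in hILO. GATA4 had no peak in hPSC, while its level was 599 RPM in DE, 531 in PP and 339 in hILO. FOXA2 was higher in PP, with 456 RPM, than in DE, with 306. SOX17, EOMES, GSC, LHX1 and FGF17 had a peak in DE and in none of the 3 other lists, as did 3.84% of the protein-coding genes with a DE peak. Of the 18 factors, 12 had their highest share of input reads in DE (66.7%), beside 27.9% of the 10647 protein-coding genes with a DE peak. The neural and ectoderm list had the same share, 4 of 6 genes with a peak, and the streak and mesoderm list had 4 of 8. FOXA1, FOXA2, FOXA3, KIT and OTX2 were among those that did not.

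**Figure D2:**
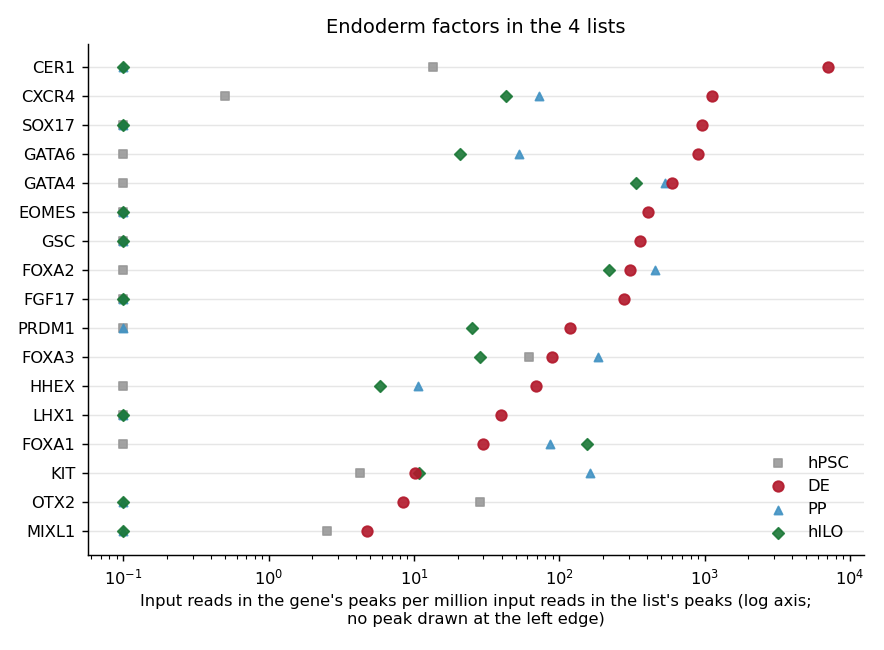
Input reads in the peaks of 17 of the endoderm factors, as RPM of the list on a log axis, with genes that had no peak in a list drawn at the left edge, where points overlap. CER1, at 7099 RPM in DE, is the highest point, and SOX17, EOMES, GSC, LHX1 and FGF17 have points off the left edge for DE alone.

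In the Nodal and activin pathway, whose signal was supplied to the cells as activin A, 19 of 22 genes carried a peak (86.4%, interval 66.7% to 95.3%), beside 53.1% of all protein-coding genes. The ligand NODAL had 33845 IP and 9876 input reads over 2 peaks, 81.8% of the IP reads in a 575 nt peak of the 3′UTR at a log2 enrichment of 2.23 (counting error 0.02). It had 784 input RPM in DE, 91.0 in hPSC and no peak in PP or hILO. The feedback inhibitor LEFTY1 had 264203 IP and 84889 input reads over 3 peaks, and 62.3% of the IP reads lay in a 275 nt peak of the 3′UTR at 2.21 (counting error 0.01). LEFTY1 had 6736 input RPM in DE, 195 in hPSC, 136 in PP and 10.0 in hILO. LEFTY2 had 46677 IP and 22027 input reads. The coding peaks of LEFTY1 and LEFTY2 are near-identical stretches, so reads of the one cannot be kept apart from reads of the other, but the 3′UTR peaks of LEFTY1 are free of this.

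The receptors and transducers had far fewer reads. ACVR2A, a type II receptor, had 1 peak with 816 IP and 156 input reads at the high log2 enrichment of 3.29 (counting error of the plain ratio 0.13). SMAD2 and SMAD3, the signal-carrying SMADs, had 5 peaks each, with 806 and 476 IP reads, and 4 and 5 of these peaks lay in the 3′UTR. FOXH1, the nuclear partner of SMAD2, had 11042 IP and 5002 input reads in 1 peak, and this peak overlaps KIFC2 on the opposite strand. SKI, a repressor of SMAD signalling, had the most peaks of the pathway, 6. The co-receptor CRIPTO, listed by its older symbol TDGF1, had 230 IP and 68 input reads in DE, which was 5.40 input RPM beside 663 in hPSC, and its leading peak has a copy in TDGF1P3. INHBA, FST and TGFBR2 had no peak. Over the pathway, 7 of the 19 genes with a peak had their highest share of input reads in DE (36.8%), beside the 27.9% of all protein-coding genes with a peak.

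Lists of markers of other cell types were set beside the same 53.1% of all protein-coding genes, which lies within the intervals for the pluripotency, streak and mesoderm, neural and extraembryonic lists and above that for pancreas and foregut. In the pluripotency list 13 of 17 genes had a peak (76.5%, interval 52.7% to 90.4%), with 792 IP RPM in all. The endoderm factors had 15607 IP RPM, of which CER1 alone had 8933. SALL4, a zinc-finger factor, had the most peaks, 6, with 4952 IP and 2348 input reads. POU5F1 had 1 peak with 1621 IP and 727 input reads, and NANOG had 2 with 801 and 360, all of them in stretches that have near-identical copies. SOX2, DNMT3B, PRDM14 and UTF1 had no peak. POU5F1 had 57.7 input RPM in DE and 1.38 in hPSC, and SOX2 was without a peak in hPSC, DE, PP and hILO alike, so that reads in peaks do not stand for expression of these markers.

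Of 17 primitive streak and mesoderm genes 8 had a peak (47.1%, interval 26.2% to 69.0%), and all 8 were low, with 133 IP RPM together. TBXT, the streak factor brachyury, had 74 IP and 14 input reads over 2 peaks. MESP1, MESP2, TBX6, MSGN1, HAND2, FOXF1, FOXC2, WNT3A and FGF8 had none. Of 18 pancreas and foregut factors 3 had a peak (16.7%, interval 5.84% to 39.2%), namely MNX1, HNF4A and PAX6, with 34.5 IP RPM together. PDX1, NKX6-1, SOX9 and ONECUT1 had none in DE, and each had peaks in PP and hILO. SOX9 with 2 and ONECUT1 with 5 also had peaks in hPSC. Neural and ectoderm genes had a peak in 6 of 16 cases (37.5%, interval 18.5% to 61.4%), with 1154 IP RPM together. NES, an intermediate filament gene, led them with 17919 IP reads over 6 peaks, and SOX1, TP63 and KRT5 had none. In the extraembryonic list 8 of 15 genes had a peak (53.3%, interval 30.1% to 75.2%), with 618 IP RPM together. They were led by COL4A1 with 7409 IP reads and LAMB1 with 5420, both basement membrane genes, and by SOX7 with 4115. CDX2, GATA2, CGA, AFP and TTR had none. The part of such other cells in the results was not tested.

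Most genes carried few peaks. Of the 13510 genes with a DE peak, 5665 had 1 peak (41.9%), 6334 had 2 to 4 (46.9%) and 1511 had 5 or more (11.2%, interval 10.7% to 11.7%). The last share was 5.08% with p below 1e-05, 5.29% with IP/input of at least 3, 6.67% with at least 50 input reads and 7.16% with near peaks merged. The genes with 5 or more peaks held 30.9% of peaks but 24.5% of IP reads. Transcript length moved with the count. The median length was 2326 nt for genes with 1 peak, 3637 nt for 2 to 4 and 6002 nt for 5 or more. Among protein-coding genes with transcripts under 1000 nt, 16.2% had a peak (interval 14.5% to 17.9%), compared with 73.3% from 6000 to 8000 nt (interval 71.2% to 75.4%). The median log2 enrichment did not move with the count, at 1.75, 1.71 and 1.72 for the 3 groups.

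TTN, the giant sarcomere protein titin, had the most deposited peaks. It had 47, of which 46 were in the coding sequence, with 10637 IP and 4897 input reads. All peaks of TTN, XACT, CFLAR, ZNF814, BPTF, FTX and KMT2A carried several gene identifiers in the list, so that their counts rest on the rule by which such peaks were assigned. Of the TTN peaks, 8 may share reads with an antisense gene or a copy, and the other lists had 5 peaks in hPSC, 13 in PP and 5 in hILO. XACT, an X-linked long noncoding RNA of pluripotent cells, had 33 peaks with 6717 IP and 2640 input reads, and had 2 peaks in hPSC and none in PP or hILO. AHNAK, a giant scaffold protein, had 27, all in the coding sequence. CFLAR, an inhibitor of caspase-8, had 20, and ANKRD11 and SPEN, both nuclear regulators of transcription, had 19 each. KMT2D and KMT2A, histone H3 lysine 4 methyltransferases, BPTF, a chromatin remodelling subunit, ZNF814 and the long noncoding RNA FTX had 18 each, and the proliferation marker MKI67 had 17. Many of these peaks did not meet the stated threshold. Counting only peaks with p below 1e-05, AHNAK led with 23, followed by TTN with 17 and ANKRD11 with 16, and CFLAR had 14. KMT2D, BPTF and XACT then had 11 each, ZNF814 and SPEN 10 each, FTX 8, MKI67 12 and KMT2A 2. ANKRD11 had its reads most evenly spread, with 12.6% of IP reads in its top peak, whereas CFLAR had 68.9% in its own. Apart from TTN, XACT and CFLAR, the coding genes among these had 13 to 25 peaks in hPSC, PP and hILO, with the exception of ZNF814, which had 5 in PP and 5 in hILO.

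By function, several lists of large chromatin and cytoskeletal proteins had high shares of genes with many peaks. In the list of chromatin remodellers 22 of 28 genes with a peak had 5 or more (78.6%), compared with 13.2% of all protein-coding genes with a peak. The share was 14 of 21 for KMT2 and SET methyltransferases (66.7%), 13 of 21 for transcription coactivators and Mediator (61.9%), 13 of 24 for cytoskeletal linkers (54.2%), 10 of 22 for the m6A machinery (45.5%), 8 of 18 for cadherins and protocadherins (44.4%) and 11 of 26 for centrosome and mitotic spindle genes (42.3%). Counting only peaks with p below 1e-05, the genes with 5 or more were 15 of 28 for remodellers, 7 of 20 for KMT2 and SET methyltransferases, 6 of 19 for coactivators and Mediator, 8 of 22 for cytoskeletal linkers, 5 of 15 for cadherins and for histone demethylases, 4 of 20 for the m6A machinery and 7 of 20 for centrosome and spindle genes, beside 509 of 8731 protein-coding genes (5.83%). These lists have long transcripts. The median was 7388 nt for remodellers, 7957 nt for KMT2 and SET methyltransferases and 13455 nt for cytoskeletal linkers, compared with 3057 nt for all protein-coding genes. Of all protein-coding genes with a peak, 24.6% of those from 6000 to 8000 nt and 37.6% of those of 8000 nt or more had 5 or more deposited peaks. The cadherins, with 44.4% at a median of 8300 nt, lie near the latter share. Per kb of exon the remodellers had 0.426 peaks, the KMT2 and SET genes 0.468, the centrosome and spindle genes 0.494 and the cytoskeletal linkers 0.259, which is close to the 0.250 of all protein-coding genes.

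Among the leading members of these lists, the remodeller BPTF had 18 peaks, ATRX 12 and ARID1B 10. In the KMT2 and SET list PRDM2 followed KMT2D and KMT2A with 13. CENPE, a kinetochore motor, had 17 and AKAP9, a centrosomal scaffold, had 16. EPPK1, a plakin, had 17, and MACF1, a crosslinker of actin and microtubules, had 15. In the cadherin list DCHS1 had 13, PCDH10 10 and FAT1 9. FAT1 had 18, 19 and 18 peaks in hPSC, PP and hILO.

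Signalling genes were covered in part, at shares above the 53.1% of all protein-coding genes, although the interval for Notch includes it. Their median transcripts were longer than the 3057 nt of all protein-coding genes, from 3850 nt for BMP to 5474 nt for Hippo, and of all protein-coding genes from 4000 to 6000 nt 66.6% had a peak, a share within the intervals for Notch, FGF and RAS-MAPK, Hippo and BMP. For the length class of the BMP median, 3000 to 4000 nt, the share was 60.2%. A peak was found on 31 of 35 Wnt genes (88.6%), 17 of 20 BMP genes (85.0%), 20 of 24 Hippo genes (83.3%), 25 of 33 FGF and RAS-MAPK genes (75.8%) and 17 of 25 Notch genes (68.0%, interval 48.4% to 82.8%). APC, the scaffold of the beta-catenin destruction complex, had 13 peaks, all coding, and 16237 IP reads. LRP6, a Wnt co-receptor, had 8 and the receptor FZD5 had 5 with 26715 IP reads. SPRY4, a feedback inhibitor of FGF signalling, had 5 peaks with 21855 IP and 14633 input reads. BMPR2, a type II BMP receptor, and SMAD1, which carries the BMP signal, had 6 each. In the Notch list SPEN was followed by MAML3, a Notch coactivator, with 11.

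Differences between lists of housekeeping proteins were not tested. The share with a peak was 71.0% for the proteasome (interval 53.4% to 83.9%), 72.4% for the spliceosome (54.3% to 85.3%) and 73.1% for the nuclear pore (53.9% to 86.3%). With at least 50 input reads these shares were 48.4%, outside its interval, 69.0% and 57.7%, beside 44.9% of all protein-coding genes. The ribosomal, glycolysis and respiratory chain lists had lower shares. Their intervals all overlap those above and include the 53.1% of all protein-coding genes. A peak was found on 17 of 43 cytoplasmic ribosomal proteins (39.5%, interval 26.4% to 54.4%), 8 of 19 glycolysis genes (42.1%, interval 23.1% to 63.7%) and 17 of 39 respiratory chain genes (43.6%, interval 29.3% to 59.0%). The median transcript lengths were 1296 nt for ribosomal proteins, 1308 nt for the respiratory chain and 1580 nt for the proteasome, compared with 2827 nt for glycolysis. Of all protein-coding genes from 1000 to 2000 nt, 37.0% had a peak. This share lies within the intervals for ribosomal proteins and the respiratory chain and below that for the proteasome. RPL14 had 5 peaks, the most of any ribosomal protein on the list, and RPL5 had the most IP reads of the 3 named by rule, 22202. All members had a peak in the KMT2 and SET list, among cytoskeletal linkers and in the m6A machinery. Leaders were DICER1 with 12 and TNRC6C with 14 for microRNA and decay factors, RANBP2 with 16 for the nuclear pore, SRRM2 with 11 for the spliceosome, VCAN with 14 for the extracellular matrix, RNF213 with 13 for ubiquitin ligases, JMJD1C with 10 for histone demethylases and MGA with 10 for MYC-related factors.

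The m6A machinery was itself covered. All 22 genes had a peak (100%, interval 85.1% to 100%), beside 53.1% of all protein-coding genes, and 10 had 5 or more (45.5%), beside 13.2%. With p below 1e-05, 20 had a peak and 4 of these had 5 or more. Among the writer complex, ZC3H13 had the most, 12 peaks with 16465 IP and 6383 input reads, 10 of them in the coding sequence. WTAP had 5 peaks with 8718 IP and 3281 input reads, VIRMA 6 with 2880 and 1591, and METTL14 4 with 1544 and 714. METTL3, the catalytic subunit, had 1 peak with 39 IP and 8 input reads at a log2 enrichment of 2.16 (counting error 0.55), while hPSC had 4 peaks on this gene. Of the erasers, ALKBH5 had 3 peaks with 6465 IP and 2753 input reads, and FTO had 1 with 45 and 9. Among the readers YTHDC1 had 7 peaks, YTHDF1 and YTHDF2 had 5 each and YTHDF3 had 3. All YTHDF2 peaks but that in the 3′UTR, with 95 IP reads, overlap ENSG00000289291 on the opposite strand or have a copy in YTHDF2P1. HNRNPA2B1, a nuclear RNA-binding protein proposed as a reader, had the most reads of the list, 109019 IP and 61752 input. METTL3 and FTO, both under 10 input reads, are thus the weakest entries.

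Reads were concentrated on few genes. The 100 genes with the most IP reads held 22.3% of all IP reads in peaks, and the leading 1000 held 53.4%. The order overlapped with that by input, since 86 of these 100 genes were also among the 100 with the most input reads. CAPZA2, a subunit of the actin capping protein, led with 415074 IP and 173104 input reads over 2 peaks. CER1 and LEFTY1 came next. They were followed by the noncoding THUMPD3-AS1 with 227390 IP reads, ITPRIPL1 with 201470, the cytokine co-receptor IL6ST with 199864, ALMS1-IT1 with 183633, TMEM125 with 171478, the kinase CDC42BPB with 161528, UNC13B with 156425, DNASE1L1 with 119725 and the gap junction gene GJA1 with 113137. ALMS1-IT1 had a low log2 ratio of reads, 0.49, and TMEM125 the highest of the 12, 1.87.

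Several of these totals came from narrow stretches. Among the 85 of the 100 leading genes that had 2 or more peaks, 33 had at least 90% of their IP reads in 1 peak (38.8%, interval 29.2% to 49.5%), compared with 10.4% of all 7845 genes with 2 or more peaks. IL6ST had 99.7% of its IP reads in a 175 nt peak at chr5:55942670-55947585, which has a near-identical stretch in the pseudogene IL6STP1, while its 475 nt peak in the 3′UTR had 480 IP reads. THUMPD3-AS1 had 99.9% in a 250 nt peak. DNASE1L1 had 98.9% in a 75 nt peak that overlaps the ribosomal protein gene RPL10 on the opposite strand. The coding peaks of GJA1 have a copy in GJA1P1. Of the 100 leading genes, 42 had at least 1 peak with a copy or with an opposite-strand gene over at least 50% of the peak. Such peaks may share reads, which was not measured. Over all DE peaks 15.1% were of this kind, with 17.2% of IP reads. Among the first 12, CAPZA2, CER1, THUMPD3-AS1, ITPRIPL1, ALMS1-IT1, TMEM125 and UNC13B had no such peak. However, the 2 peaks of THUMPD3-AS1 carried several gene identifiers. The 2 peaks of CAPZA2 covered 262 nt in all, and the 1 peak of ALMS1-IT1 covered 75 nt.

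To name genes whose reads came from more than 1 place, genes with 3 or more peaks were ordered by the median IP reads per nt over their peaks, an order added after the data were seen. APOE, an apolipoprotein, led with a median of 629 IP reads per nt over 3 peaks and at least 229 in each. LEFTY1 followed with 469 and at least 351 in each. The 3 peaks of APOE cover 111 nt of exon in all, so that its values per nt rest on very short stretches. All 3 peaks of APOE and all 3 of LEFTY1 carried several gene identifiers. SLC2A3, a glucose transporter, had 135 over 4 peaks with at least 35.7 in each, and 2 of its peaks had uncertain reads. COL6A2, a chain of collagen VI, had 94.1 over 7 peaks, none of which was marked as possibly sharing reads, and 22.5% of its IP reads in the top peak. COL6A2 had 2831 input RPM in DE, 475 in hPSC, 2.29 in PP and no peak in hILO. CDC42BPB, ITPRIPL1, TARDBP, DET1 and RPS24 were also among the 12 leaders, but the lowest of their peaks had 0.116 to 4.35 IP reads per nt.

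Peaks in DE alone, with none in hPSC, PP or hILO, were found on 933 genes (6.91% of genes with a DE peak, interval 6.49% to 7.35%), which held 3.33% of IP reads. Of these 409 were protein-coding, out of 10647 protein-coding genes with a DE peak (3.84%), and 391 were long noncoding RNAs, out of 2055. A single peak was found on 727 of the 933, while 41.9% of all genes with a DE peak had 1. The median input reads of their peaks was 63, compared with 103 over all DE peaks. By IP reads the long noncoding RNAs LINC01788, with 61490 in 1 peak of 175 nt, and CFAP95-DT, with 50430, came first. The pseudogene GAPDHP20 had 41934 IP and 32116 input reads at a log2 enrichment of 0.71, near the lower limit of the list. SOX17 was the leading protein-coding gene. HAS2, which makes hyaluronan, followed with 30796 IP and 13174 input reads over 5 peaks, of which the leading peak of 425 nt in the coding sequence had 22379 IP reads. LUARIS with 27774, the pseudogene ENSG00000251468, the protein-coding ENSG00000173867, GSC with 18905 and MAFA with 17079 completed the first 10. The single peak of ENSG00000173867 carried 3 gene identifiers, and that of ENSG00000251468 has near-identical copies in other genes. Their place here thus rests on how peaks and reads were assigned. MAFA, a factor known from beta cells, had a single 125 nt peak in its coding sequence with 5190 input reads.

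The ratio of IP to input was also ordered over genes. Among genes with at least 200 input reads the highest log2 ratios of summed reads were 2.88 for LBX2-AS1 (counting error 0.06), 2.79 for GADD45G (0.10), a stress-response gene, 2.78 for SLC35C2 (0.07), 2.69 for ARHGEF15 (0.04) and 2.67 for both ARTN (0.10), a neurotrophic ligand, and ARHGEF10L (0.08). Genes ENSG00000261061, ENSG00000247033, CPM and ART5 followed with 2.55, 2.46, 2.45 and 2.45. The leading peak lay in the 3′UTR for GADD45G, ARHGEF15, ARTN and ARHGEF10L, in the 5′UTR for SLC35C2 and in the coding sequence for ART5. The peaks of CPM and ENSG00000247033 overlap MDM2 and ZNRF1 on the opposite strand. LBX2-AS1 had 4373 IP and 464 input reads in a 200 nt peak at chr2:74504295-74504494, with a log2 enrichment of 3.51 (counting error 0.07).

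The lowest ratios were 0.09 for NFYB (counting error 0.11), 0.19 for ANAPC16 (0.09), 0.19 for LANCL1 (0.12) and 0.20 for YWHAZ (0.03), followed by ENSG00000267745, SNX7, HDAC3, EBNA1BP2 and ENSG00000271963 from 0.20 to 0.23. DKK4, a secreted Wnt antagonist, was at 0.23 (0.11) and had a peak in DE and in none of the 3 other lists. NFYB had nearly as many input as IP reads, 309 and 329, yet its deposited log2 enrichment was 1.15. The deposited value is an estimate of the peak caller and not the plain ratio of reads. Over all DE peaks the median log2 enrichment was 1.72 (quartiles 1.38 and 2.12) as deposited and 1.35 (quartiles 0.99 and 1.73) as a ratio of reads. In peaks under 35% GC these medians were 2.01 and 1.12, whereas in peaks of 60% GC or more they were 1.48 and 1.53, so that the order by GC turned. The cause was not tested.

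Along the transcript, 12124 of the placed peaks lay in the coding sequence (50.6%, interval 50.0% to 51.3%), 10691 in the 3′UTR (44.6%) and 1132 in the 5′UTR (4.73%). Per kb of each region there were 0.616 peaks in the coding sequence, 0.471 in the 3′UTR and 0.374 in the 5′UTR. IP reads divided like peaks, with 49.0%, 46.7% and 4.22%. The density was highest just past the stop codon, at 1.75 peaks per kb from 0 to 100 nt into the 3′UTR, compared with 0.751 from 200 to 100 nt before the stop codon and 0.218 from 1900 to 2000 nt after it. GSC, MIXL1, FOXA2, LEFTY1 and NODAL had the midpoint of their leading peak at 95, 41, 147, 110 and 215 nt past the stop codon.

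Within the coding sequence, long exons carried more peaks. Internal exons of up to 200 nt made up 48.2% of coding length and had 0.296 peaks per kb. Internal exons over 400 and up to 1000 nt had 1.29 per kb, those over 1000 nt 1.10, and last exons 1.15. Median log2 enrichment differed little among them, from 1.51 in first exons to 1.80 in last exons. AHNAK with 27 coding peaks, MKI67 with 16 and APC with 13 are genes known for a very long coding exon.

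Motif content was counted on the transcript strand in DE peaks and in the remaining exonic sequence of the genes that carry them. GGACT had the highest ratio of the 18 DRACH 5-mers, 1.57 per kb in peaks and 0.888 outside, a ratio of 1.77 (counting interval 1.73 to 1.80). It was followed by GGACA at 1.62, then AGACT at 1.52, then GAACT at 1.48. The ratio was below 1 for TAACC, for TAACA and for TAACT, with the lowest at 0.884. On the opposite strand the ratio of GGACT was 0.976, and that of all DRACH 5-mers was 0.849, compared with 1.28 on the transcript strand. In windows of 50 nt to either side of the peak centre, GGACT was found in 3569 of 22243 (interval 15.6% to 16.5%), compared with 7.92% of windows of the same length in exons outside peaks. Any DRACH 5-mer was found in 91.9% and 82.5%. The share of windows with GGACT did not rise steadily with enrichment. From the lowest quintile of peaks to the highest it was 16.4%, 16.1%, 16.4%, 16.8% and 14.5%. The highest quintile had a median of 51 input reads beside 127 in the lowest. With at least 50 input reads the share was 15.9%, 15.9%, 16.7%, 17.4% and 14.3%, thus a rise up to the last quintile and a fall in it.

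The motif was not centred on the peaks. Sites of GGACT were most frequent from 60 to 40 nt upstream of the peak centre, at 2.50 per kb for genes on the + strand and 2.47 on the - strand, compared with 1.70 and 1.73 within 20 nt of the centre and 0.923 and 0.910 at 200 to 300 nt from it. The highest bin was the same in hPSC, PP and hILO on both strands. In the 25583 peaks within 1 exon, GGACT was found in 19.5% of windows moved by 50 nt upstream (interval 19.0% to 20.0%), compared with 15.5% of the centred windows of the same peaks. Distances to the stop codon above refer to peak midpoints and carry this offset, and its cause was not tested.

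**Figure D3:**
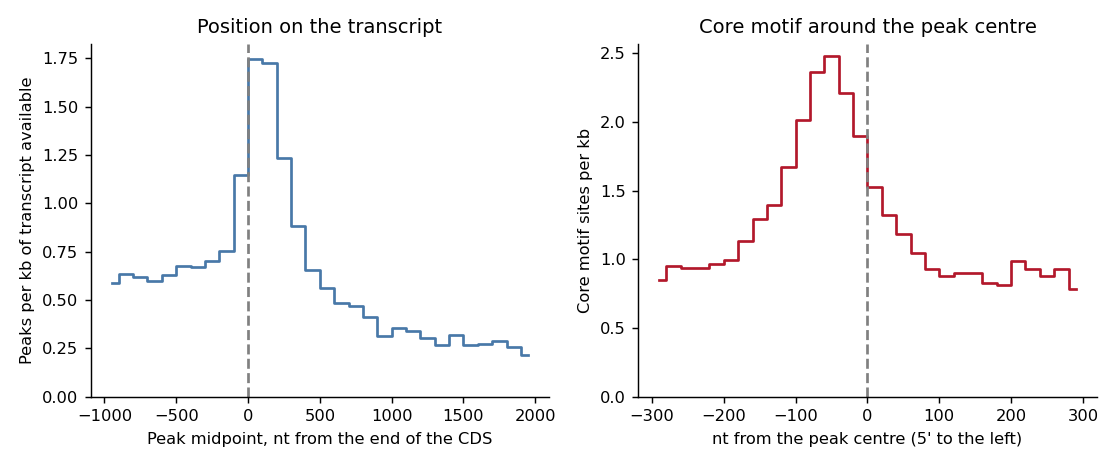
Left, DE peak midpoints per kb of transcript available against the distance in nt from the end of the coding sequence (dashed line), in bins of 100 nt, and right, sites of the core motif GGACT per kb against the distance in nt from the peak centre, 5′ to the left, in bins of 20 nt. The left curve is highest at 1.75 per kb just past the coding sequence, and the right curve is highest 60 to 40 nt upstream of the centre.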

How the data were processed

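The authors used fastp for trimming and HISAT2 for alignment to GRCh38, with 1 alignment kept for each read, so that near-identical copies can take reads from each other, and called peaks with exomePeak2 on the 2 IP and 2 input libraries of DE together. The deposited list gives per peak counts of IP and input reads pooled over libraries (sum or mean not stated), a log2 enrichment of IP over input corrected in peak calling, and the p-value of the peak before and after adjustment. The study states p below 1e-05, which 62.7% of the deposited DE peaks met, and the list ends at an adjusted p of 0.05. No values per library were analysed here.

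Peak spans were reduced to exons of GENCODE 44 (Python 3, NumPy, pandas). Peaks with several gene identifiers (17.4%) went to a protein-coding gene first, then to the largest exonic overlap. Midpoints were placed on the longest coding isoform. Copies were stretches of at least 95% identity over at least 50% of a peak in transcripts of another gene (BLAST+). Counting errors added 0.5 to each count, log2 ratios used a pseudocount of 1, and shares have Wilson 95% intervals. PCR copies are not independent molecules, so all errors are approximate. Functions were tested on simulated data.

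Named genes were members of the lists of endoderm factors, Nodal pathway, m6A machinery and other cell types, 3 leading members of each other list, and the leading genes by peaks, IP reads, peaks per kb, ratio and absence from hPSC, PP and hILO. The members and lists were chosen with earlier results of these data known. Alternatives covered the p, enrichment and read thresholds, merging, placing, background and genes counted. WT and A5-KO PP, made with another protocol, were not used here. Some genes and 1 sequence are not reported here.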

Additional observations from a re-analysis of the deposited data

How the results depend on the processing

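The number of DE peaks, 32680, was 20498 with p below 1e-05 and 19525 with IP/input of at least 3, and stayed within 1.5 times under the other alternatives. Genes with a peak stayed within 1.5 times throughout, with a lowest count of 10419. In the order p below 1e-05, IP/input of at least 2, IP/input of at least 3 and at least 50 input reads, the share of coding genes with a peak was 43.6%, 52.0%, 41.5% and 44.9%. The share of genes with 5 or more peaks was 5.08%, 10.4%, 5.29% and 6.67%, and 7.16% with peaks under 100 nt apart merged. The share of IP reads on 100 genes was 23.3%, 23.0%, 28.0% and 22.9%, and 22.2% without mitochondrial genes. The median log2 enrichment was 1.84, 1.76, 2.03 and 1.65, and 1.35 as the ratio of reads. The CDS share and the GGACT ratio stayed within their intervals at these thresholds. The CDS share was 61.4% counting any overlap, and the GGACT ratio was 0.976 on the opposite strand. Alternatives added after seeing the data gave an IP share of 22.4% without peaks that may share reads, and a CDS share of 51.9% on MANE Select isoforms. They also gave shares of genes found in DE alone of 5.25% with p below 1e-05 and 5.40% with at least 50 input reads. Of 34 gene lists, 31 and 30 kept their share of members within its interval at p below 1e-05 and at 50 input reads. Depth limits peaks under 10 input reads, whose median counting error of 0.61 on the log2 scale came with a median log2 enrichment of 2.52. The counts over peaks with p below 1e-05 for single genes and for 5 or more peaks in a list, and the centred windows of the same peaks, were also chosen after seeing the data. No paired analysis was possible because the reads are pooled over the libraries of a group, and for the same reason no replicate could be left out.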

Other observations

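Long noncoding RNAs held 3405 of the DE peaks (10.4%) on 2055 genes, 10.9% of the 18866 annotated. Their median log2 enrichment was 1.83, compared with 1.71 for protein-coding genes. By a copy or an opposite-strand gene, 32.2% of their peaks may share reads with another gene, compared with 10.8%. XACT with 33 peaks and FTX with 18 had the most. TTN-AS1, antisense to titin, had 16 peaks with 5732 IP reads, and 11 of these peaks may share reads with another gene. SNHG14 had 14 and TTC28-AS1 had 13. HCG18 had 12445 IP reads over 11 peaks. TTN-AS1 had 7 peaks in hPSC, 7 in PP and 9 in hILO. These genes beyond XACT and FTX were named after their values were seen.

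Pseudogenes held 1172 DE peaks, of which 62.1% shared reads with another gene. Per kb of exon, the genes with the densest peaks among coding genes with 3 or more were mitochondrial MT-ND2, with 3.84 per kb over 4 peaks that all share reads with another gene, C8orf48 with 3.52, RTL8C with 3.36, ZSCAN16 with 3.29 and SFN with 3.06. NPIPA7, RAB32, POLR2L, FAM32A and TIMM8B followed, from 3.00 down to 2.57. SFN, an epithelial 14-3-3 protein, had 7820 IP and 2590 input reads over 4 peaks in DE, 3 peaks with 2278 IP reads in hPSC, and no peak in PP or hILO.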
